A study of Mus musculus with 2 samples.

Results

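Cog3, Blcap, Azin1, Igfbp7, Flna and Dact3 are mouse genes whose coding sequence held at least 1 listed A-to-I editing site in cultured embryonic fibroblasts. They are 6 of the 24015 genes of the expression table. They were chosen because amino acid changes were listed for them, so their editing levels are given as a description, without a test. Poly(A)+ RNA of mouse embryonic fibroblasts, connective tissue cells grown from embryos, was sequenced once for cells titled Adar2-WT (genotype Adar2+/+) and once for cells titled Adar2-KO (genotype Adar2-/-), grown in the same serum-containing medium. The age of the embryos, the deleted exon and whether either culture is a clonal line are absent from the labels. With 1 library per genotype, no difference has a replicate check. Genotype, culture and library kit cannot be told apart.

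ADAR enzymes deaminate adenosine to inosine in double-stranded RNA. The ribosome and the sequencer read inosine as G, so editing inside a codon can change the amino acid. ADAR2, encoded by Adarb1, is best known for recoding ion channel transcripts in brain, and ADAR1, encoded by Adar, also edits double-stranded RNA formed by repeats. Both enzymes recode some transcripts outside the nervous system.

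The transcripts of the editing enzymes did not follow the label of the deleted gene. Adarb1 had 18.4 RPKM (reads scaled by gene length and library size) in the library labelled WT and 25.8 RPKM in the library labelled KO. Adar had 28.0 and 18.7 RPKM in the same order. A value over the whole gene does not check the deletion of part of it, and the libraries are called WT-labelled and KO-labelled throughout. All 12 fibroblast markers were expressed, between 9.40 (Thy1) and 96.2 RPKM (Fn1) in the WT-labelled library and between 11.3 (Lum) and 97.9 RPKM (Fn1) in the KO-labelled library. Thy1 (9.40 and 72.1 RPKM) and the matrix proteoglycan gene Dcn (29.7 and 12.3 RPKM) were more than 2-fold apart. Summed RPKM of 6 epithelial markers was 2.35 and 1.77, of 5 endothelial markers 4.21 and 0.421, and of 6 immune markers 7.18 and 7.50, mostly Cd68. Of 6 neural markers, Map2 (32.7 and 15.8 RPKM) and Tubb3 (20.1 and 15.7 RPKM) were expressed and Snap25 and Rbfox3 were listed at 0. The part of these differences in the results below was not tested.

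The editing files held 10 distinct sites in the 6 genes: 8 with an amino acid change, 1 synonymous and 1 intronic. The WT-labelled list had 9 of them among its 654 sites, and the KO-labelled list had 3 among its 110. No site in a 3′ UTR was listed for these genes. The WT-labelled list named 8 amino acid changes in all, and 7 belonged to these genes. The other was a glutamine-to-arginine site assigned to the transcript uc008kxa.2 (chromosome 2, 91776930, mm9), with 2 edited of 17 reads (WT-labelled) and 4 of 15 (KO-labelled). Outside the 6 genes, the only synonymous site was in uc009ngo.1 (chromosome 8, 109409504, mm9), at 12 of 52 reads in the WT-labelled library.

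Where a gene had 2 coding sites, their spacing and amino acid changes fixed a single place in the coding sequence. The stretches of Blcap and Igfbp7 are shown because they hold the edited codons, which are in capitals. They come from GENCODE M21 transcripts on GRCm38, both from the minus strand and read 5′ to 3′: Blcap from chr2:157558121-157558153 and Igfbp7 from chr5:77407712-77407801.
Blcap codons 1 to 11: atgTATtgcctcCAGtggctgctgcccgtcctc
Igfbp7 codons 72 to 101: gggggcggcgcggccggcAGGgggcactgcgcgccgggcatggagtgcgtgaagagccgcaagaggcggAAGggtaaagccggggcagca
In Blcap, editing turns TAT into TGT (Y2C) and CAG into CGG (Q5R), the latter 9 bases downstream. In Igfbp7, AGG becomes GGG (R78G) and, 52 bases on, AAG becomes AGG (K95R). In Azin1 the edited adenosines are adjacent, with a silent change in codon 366 and S367G in the next. The base 5′ of the edited adenosine was A at 1 of the 4 sites in Blcap and Igfbp7, C at 2, T at 1 and G at none. Among all coding adenosines of these genes, G stood 5′ in 15.4% (Blcap) and 30.5% (Igfbp7). The amino acid change itself fixes the 5′ base at Y2C, Q5R and K95R, so only R78G could have had G there. Nothing is therefore read from the comparison with these shares. The base 3′ of the edited adenosine was G at 3 of the 4 sites. The amino acid change requires G there at R78G and excludes it at Y2C. The share of coding adenosines with G on the 3′ side was not computed, so nothing is read from this count. For the single coding sites of Cog3, Flna and Dact3 the amino acid change alone left 43, 94 and 8 possible codons, and no stretch is shown.

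Cog3, a subunit of the conserved oligomeric Golgi complex that tethers transport vesicles, had the highest level of the 6 genes. Its isoleucine-to-valine site (chromosome 14, 76119526, mm9) carried the edited base in 28 of the 33 reads of the WT-labelled library, which is 84.8% (Wilson 95% interval 69.1 to 93.3, as for all levels below). In the KO-labelled library it was edited in 5 of 37 reads, or 13.5% (5.91 to 28.0). The difference, KO-labelled minus WT-labelled, was -71.3 percentage points (Newcombe 95% interval -82.7 to -49.9). Among the 55 sites that both lists hold and 10 or more reads cover in each, this was the 4th largest fall. The median difference of those sites was -40.0 points. All intervals cover counting error only, since no molecular identifier tells reads of a single molecule apart.

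Blcap, a small membrane protein first described in bladder cancer, stood near equal levels in both libraries. Its tyrosine-to-cysteine site (Y2C; chromosome 2, 157383885, mm9) had 6 edited of 33 reads, or 18.2% (8.61 to 34.4), when WT-labelled. The KO-labelled value was 5 of 34 reads, or 14.7% (6.45 to 30.1). The difference of -3.48 points had an interval of -21.7 to 14.7, so it was within counting error, and a shift inside that range was not detectable at this depth. It ranked 51st of the 55 shared sites by the size of the fall. The glutamine-to-arginine site (Q5R; 157383876) was listed for the KO-labelled library only, with 4 of 39 reads, or 10.3% (4.06 to 23.6). At the 33 reads that the WT-labelled library had 9 bases away, that level would give 3.38 edited reads. Of the KO-labelled list, 31.8% of sites were missing from the WT-labelled list.

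**Figure D1:**
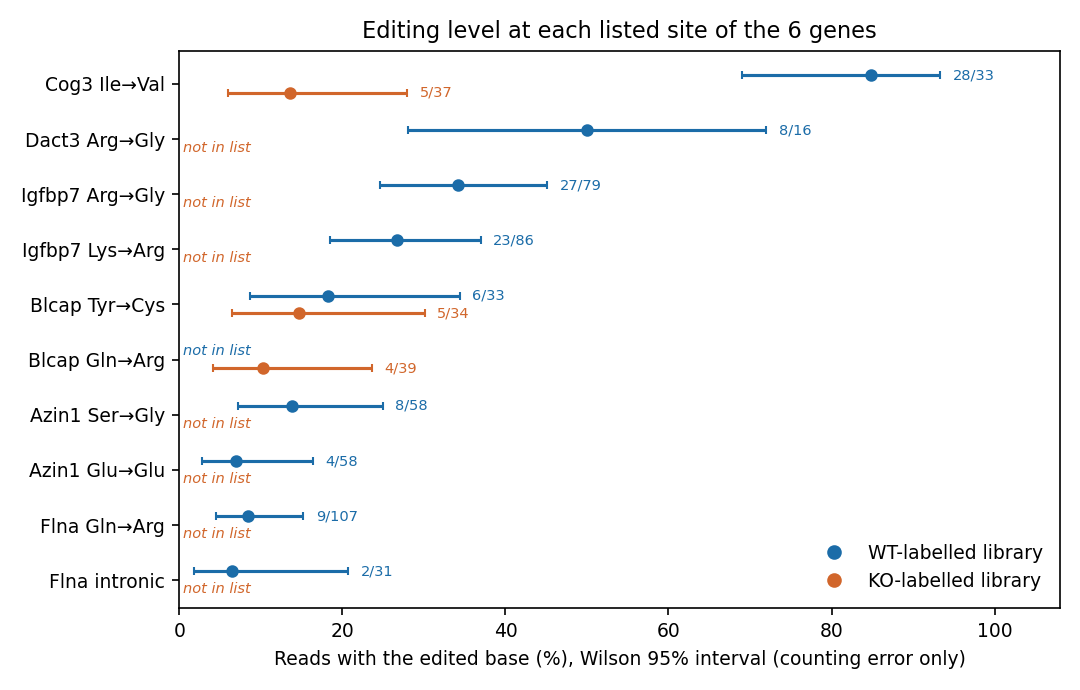
Editing level (percent of reads with the edited base, horizontal axis) at each listed site of the 6 genes, with Wilson 95% intervals and edited over total reads beside each point, in the WT-labelled (blue) and KO-labelled (orange) library. Only Cog3 and the Blcap Y2C site have a level in both libraries: the Cog3 intervals are apart and the Blcap intervals overlap almost fully.

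**Figure D2:**
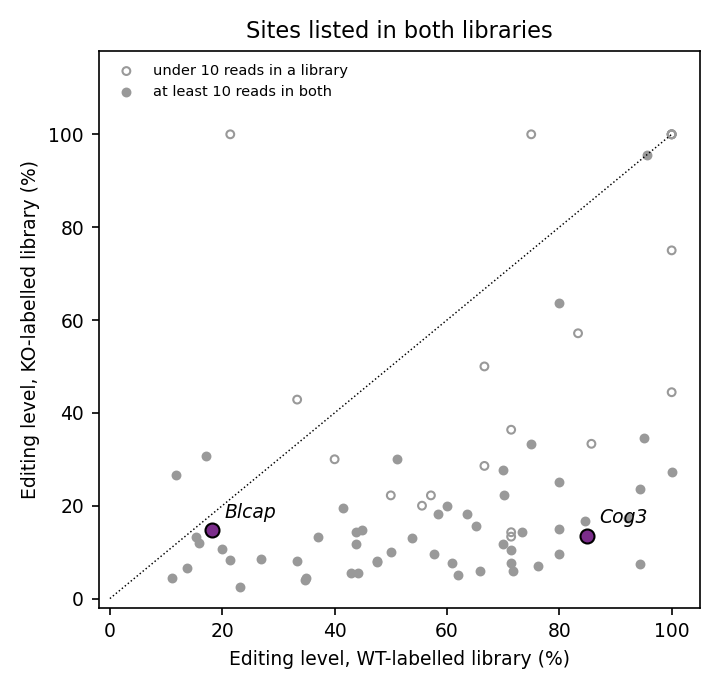
Editing level in the KO-labelled library (vertical axis, percent) against the WT-labelled library (horizontal axis, percent) at the 75 sites in both lists, with the dotted line marking equal levels. Cog3 lies far below the line, at 84.8% and 13.5%, and Blcap just below it, at 18.2% and 14.7%.

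Igfbp7, a secreted insulin-like growth factor binding protein, had recoding sites at 2 codons, both in the WT-labelled list only. The arginine-to-glycine site (R78G; chromosome 5, 77836808, mm9) was edited in 27 of 79 reads, or 34.2% (24.7 to 45.2). The lysine-to-arginine site (K95R; 77836756) was edited in 23 of 86 reads, or 26.7% (18.5 to 36.9). The intervals overlap, and reads may cover both sites; the read length is absent from the labels.

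Azin1, the antizyme inhibitor that spares ornithine decarboxylase from degradation, was also edited in the WT-labelled list only. The serine-to-glycine site (S367G; chromosome 15, 38421367, mm9) had 8 edited reads of 58, or 13.8% (7.16 to 24.9). The silent neighbour (38421368) had 4 of 58, or 6.90% (2.71 to 16.4). The intervals overlap, and how many of these reads carried both edits cannot be read from the list.

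Flna, filamin A, which crosslinks actin filaments, had the most deeply covered site of either list and a low level. Its glutamine-to-arginine site (chromosome X, 71472201, mm9) was edited in 9 of 107 reads, or 8.41% (4.49 to 15.2). An intronic site 212 bases away (71471989) was edited in 2 of 31 reads, or 6.45% (1.79 to 20.7). Neither was in the KO-labelled list.

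Dact3, a Dishevelled-binding antagonist of Wnt signalling, had an arginine-to-glycine site (chromosome 7, 17470696, mm9) with 8 edited reads of 16, or 50.0% (28.0 to 72.0). It was listed for the WT-labelled library only and had the fewest reads of the 9 WT-labelled sites in these genes.

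Of the 9 sites in the WT-labelled list, 7 were missing from the KO-labelled list, as were 88.5% of all 654 WT-labelled sites (84.2% of the 253 with at least 20 reads). The listing chose the genes, so nothing is read from this share. A missing site has no depth in the file. At shared sites, the KO depth was compared with the WT depth scaled by the gene's reads in both libraries. Over 43 such sites with at least 10 WT reads, in 32 genes of the expression table, the median ratio was 1.0. The 10th to 90th percentile was 0.823 to 1.16 and the full range 0.641 to 1.51. All 43 were listed for both libraries, so the ratio does not check the depth at sites missing from the KO-labelled list. Scaled in this way, the KO-labelled library would have 68.7 and 74.8 reads over the Igfbp7 R78G and K95R sites. The WT levels would then give 23.5 and 20.01 edited reads. The 2 edited reads of the least supported listed sites would be 2.91% and 2.67%. For Azin1 S367G the scaled depth was 64.2 reads, with 8.85 edited reads at the WT level, and for the Flna coding site 113 reads, with 9.51 edited reads. The silent Azin1 site would have 4.43 edited reads at the WT level. The Dact3 site would have 8.09 reads, with 4.05 edited reads at the WT level, and 2 reads there are 24.7%. The Flna intronic site would have 32.8 reads, with 2.11 edited reads at the WT level. These last 3 sites would have few edited reads at the WT level, and the KO-labelled list holds sites with as few as 2. Why the 3 were missing from it was not tested. The lowest level in the KO-labelled list was 2.53%, and no source used here gives the filters behind the lists.

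The authors' annotation columns describe these sites further. All 7 WT-labelled amino acid changes of these genes had a human position in the authors' conservation column. Over all 8 WT-labelled amino acid changes, the number with such a position was also 7. Of the 645 sites of any region outside these genes, 9 had such a position (1.40%). The synonymous and intronic sites of these genes had none. None of the 9 lay in an annotated repeat, and neither did the coding sites of other genes (0 of all 10 WT-labelled coding sites). Of all sites outside these genes, intergenic ones included, 81.7% did. Depth and level were among the values used to choose the genes and are given as a description. The 9 sites had a median of 58 reads, against 15 for the sites outside these genes. Flna, Igfbp7 K95R and Igfbp7 R78G ranked 1st, 2nd and 6th of 654 by depth. Their median level was 18.2%, against 40.0%, and 3 of the 9 were under 10% (5.89% of the other sites were).

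**Figure D3:**
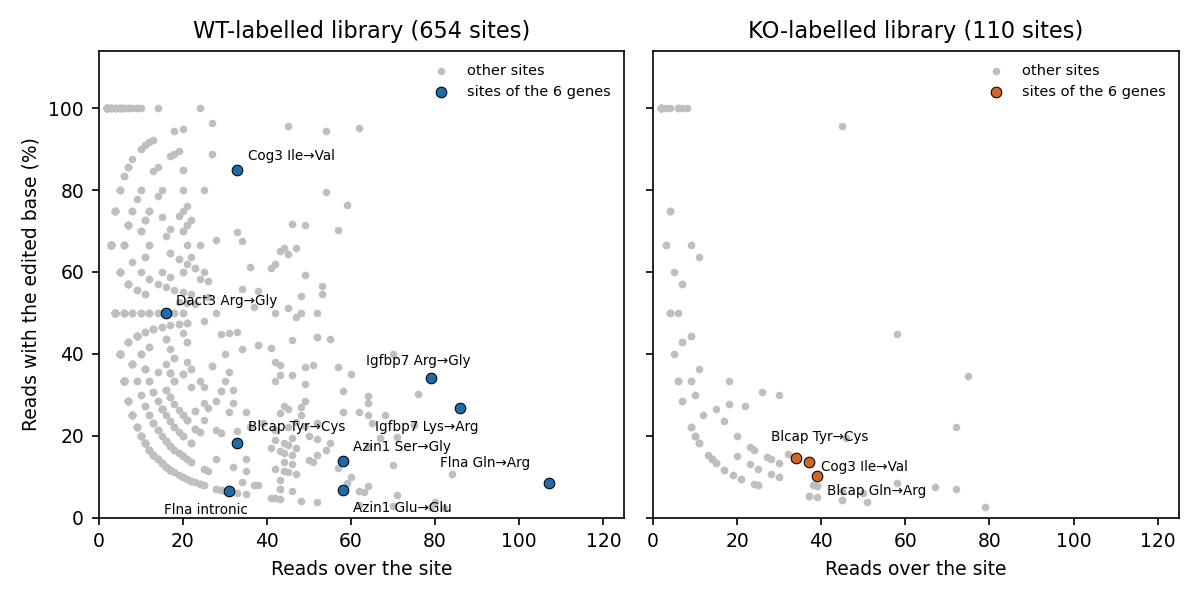
Editing level (percent, vertical axis) against reads over the site (horizontal axis) for each listed site, with the WT-labelled library on the left and the KO-labelled library on the right; sites of the 6 genes are coloured, others grey. In the WT-labelled library the Flna coding site has the most reads, 107, at 8.41%, while Cog3 stands at 84.8% of 33 reads.

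The 6 genes were expressed at 18.1 RPKM or more in both libraries. Igfbp7 was highest in the WT-labelled library, at 89.97 RPKM (1031 reads), against 77.5 RPKM (897 reads) when KO-labelled. Flna had 87.4 RPKM (6910 reads) and 91.4 RPKM (7302 reads). They ranked 29th and 37th of all genes in the WT-labelled library. Azin1 followed with 42.0 RPKM (1994 reads) and 46.0 RPKM (2207 reads), then Cog3 with 37.1 RPKM (1479 reads) and 35.1 RPKM (1415 reads). Dact3 had 36.2 RPKM (967 reads) and 18.1 RPKM (489 reads), and Blcap 33.9 RPKM (666 reads) and 38.0 RPKM (755 reads). Among the KO-labelled values Dact3 was the lowest of the 6 and Flna the highest. The Igfbp7 and Flna values lie near a ceiling, with WT-labelled values of 0.850 and 0.825 reads per base, while no gene there exceeded 1.01. The KO-labelled values were 0.739 and 0.872 reads per base, and the highest of any gene there was 1.19. Whether the ceiling also compresses lower values, such as the WT-labelled ones of Azin1 (0.397) and Cog3 (0.350), was not tested.

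Expression of 5 of the 6 genes was close in the 2 libraries, Igfbp7 and Flna among them, and the part of the ceiling in their ratios was not tested. Dact3 had a KO-labelled RPKM of 0.50 times its WT-labelled one. On the scale of log2((KO + 1)/(WT + 1)) of RPKM, Dact3 was at -0.96 and so just inside the 2-fold mark. The exact 95% interval of its log2 ratio of reads per library total was -1.16 to -0.84. The authors' deposited table gives Dact3 a GFOLD value, a log2 fold change shrunken toward 0 where reads are few, of -0.76. Igfbp7 was at -0.21 on the same log2 scale (interval of the reads ratio -0.35 to -0.09) and Cog3 at -0.08 (-0.19 to 0.03). Blcap was at 0.16 (0.01 to 0.32), Azin1 at 0.13 (0.04 to 0.22) and Flna at 0.06 (0.02 to 0.11). None of the 6 was at least 2-fold apart, against 11.9% of the 13867 genes compared (1 RPKM or more in either library). Their median log2 ratio was -0.01 and that of all compared genes 0.01. The Cog3 transcript thus differed by less than counting error while the difference in level at its edited codon was -71.3 points.

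**Figure D4:**
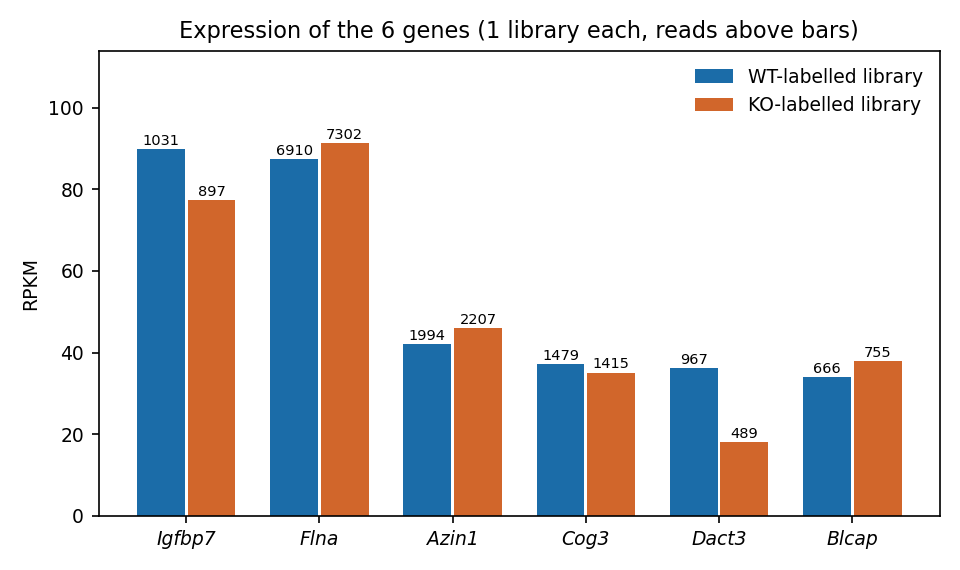
RPKM (vertical axis) of the 6 genes in the WT-labelled (blue) and KO-labelled (orange) library, 1 library each, with the reads behind each value above its bar. Dact3 stands at 36.2 and 18.1 RPKM, and the bars of the other 5 genes are close.

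Relatives and partners of the edited genes were read from lists of known families. All 8 subunit genes of the COG complex were within 2-fold, with a median log2 ratio of 0.01. Of all compared genes, 11.9% were at least 2-fold apart, so nothing is read from such counts in lists this small. Cog3 was the most abundant per length, and the ends were Cog6 (31.8 and 28.4 RPKM, WT-labelled first here and below) and Cog1 (18.7 and 21.6 RPKM). The remaining subunits Cog2, Cog4, Cog5, Cog7 and Cog8 had log2 ratios between -0.07 and 0.08. No subunit other than Cog3 had a listed site.

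All 13 compared genes of polyamine metabolism and antizyme control were within 2-fold (median 0.03), where 11.9% of all compared genes were not. The ends were the polyamine oxidase gene Paox (13.5 and 8.50 RPKM, log2 ratio -0.61) and Adc, the other antizyme inhibitor (12.5 and 22.1 RPKM, log2 ratio 0.77). Odc1, the ornithine decarboxylase that AZIN1 spares, had 36.3 and 29.7 RPKM, and the antizyme gene Oaz1 52.7 and 54.4 RPKM. Amd1 and Amd2 shared their reads, with 1484 and 1533 for each, and are uncertain as separate genes.

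Among the insulin-like growth factor binding proteins, 1 gene was beyond 2-fold. Igfbp6 had 3.94 RPKM (48 reads) and 41.8 RPKM (515 reads), a log2 ratio of 3.12, while 4.42% of all compared genes were at least 2-fold higher. Igfbp3 was at the other end with 55.8 and 31.9 RPKM (log2 ratio -0.79), inside 2-fold; 7.46% of all compared genes were at least 2-fold lower. Igfbp4 had 47.0 and 53.1 RPKM, and Igfbp5 11.6 and 9.18 RPKM. Igfbp2 had 1 read and 0 reads, and Igfbp1 was listed at 0 in both libraries. No binding protein gene other than Igfbp7 had a listed site.

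The muscle filamin gene Flnc, a relative of Flna, was close in the 2 libraries, at 28.4 and 30.0 RPKM. Of 11 compared filamin and partner genes 10 were within 2-fold (median -0.02), and the ends at 10 RPKM were Fam101b (31.8 and 28.4 RPKM) and the integrin gene Itgb7 (10.3 and 14.7 RPKM). The gene above 2-fold was Asb2, a ubiquitin ligase adaptor that targets filamins, with 0.0787 RPKM (2 reads) and 3.04 RPKM (78 reads). Of all compared genes, 4.42% were at least 2-fold higher in the KO-labelled library.

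Dact3 was the lowest of its 6-gene list, in which no gene was 2-fold apart (median 0.08), against 11.9% of all compared genes. Dact1 had 12.1 and 13.9 RPKM, and Dact2 8.89 and 12.3 RPKM, with log2 ratios of 0.18 and 0.42. The Dishevelled genes Dvl1, Dvl2 and Dvl3, whose products DACT proteins bind, had log2 ratios of -0.04, 0.19 and -0.03. Nnat, which lies inside Blcap on the opposite strand, had 1.03 RPKM (13 reads) and 2.74 RPKM (35 reads). No source used here says whether counting used strand, so reads of this pair may be shared.

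**Figure D5:**
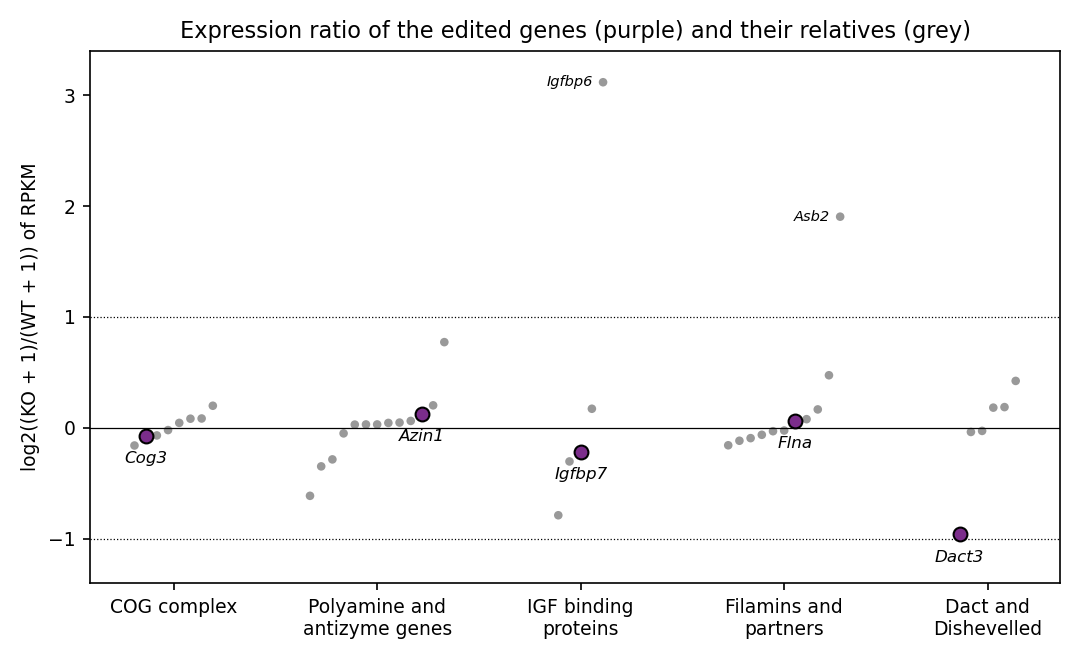
Log2((KO + 1)/(WT + 1)) of RPKM (vertical axis) for the edited genes (purple) and their compared relatives (grey), grouped by family, with dotted lines at 2-fold. Only Igfbp6, at 3.12, and Asb2, at 1.90, lie beyond 2-fold, and Dact3 is just inside at -0.96.

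A list of 30 further genes drawn up as recoding candidates held no coding site in either library. Several of its neuronal genes were barely expressed: Gria2 had 0.0137 and 0 RPKM, Htr2c 0.0446 and 0 RPKM, Kcna1 0 and 0.0117 RPKM, and Gria4 and Cadps were listed at 0 in both. The candidates Tmem63b (38.6 and 41.0 RPKM) and Copa (27.5 and 28.0 RPKM) were expressed at levels near those of the 6 edited genes, Copa below their lowest WT-labelled value. Of 20 compared candidates 2 were at least 2-fold higher in the KO-labelled library and 3 at least 2-fold lower (median 0.13), against the 4.42% and 7.46% of all compared genes. The higher genes were the glutamate receptor subunit gene Gria3 (0.557 and 9.61 RPKM) and Cyfip2 (0.105 and 1.37 RPKM). The lower genes were the GABA receptor subunit gene Gabra3 (3.78 RPKM and listed at 0), Nova1 (1.65 and 0.0299 RPKM) and Tro (6.12 and 0.159 RPKM). Among candidates at 10 RPKM the lowest ratio was that of Zfp397 (25.8 and 23.1 RPKM). The listed sites in these candidates, Rpa1 and Spag9 among them, lay in introns and 3′ UTRs.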

How the data were processed

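Poly(A)+ libraries of 1 Adar2-WT and 1 Adar2-KO culture were grouped by their titles. STAR 2.4.0d, SAMtools and the build mm9 appear in the submitters' processing notes, with no step given. The expression table deposited by the authors has the layout of GFOLD output and gives RPKM, a log2 fold change, a log2 GFOLD value and an empirical FDR, a q-value that was 1 in every row and was not used, per the file headers. The editing lists deposited by the authors give, per the file headers, the count of reads over each site, the count with the mismatch and the level as a fraction. No source used here gives the counting rule, the editing caller or its filters.

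Library totals were recovered from the RPKM and log2 values of genes at 0 in 1 library: 9446911 reads (WT-labelled) and 9546997 reads (KO-labelled), which left gene lengths a mean of 0.0025 and 0.0019 bases from a whole number. The printed values of all 6 genes, and of 96 of 115 genes examined, fitted exactly 1 pair of read numbers. The recovery and the intervals were tested on simulated data. Log2 ratios are log2((KO + 1)/(WT + 1)) of RPKM, for genes at 1 RPKM or more in either library. Levels have Wilson 95% intervals, differences Newcombe intervals and read ratios exact intervals conditional on the sum. No p-value was computed. Sites were placed in coding sequences by amino acid change and spacing, with no conversion between builds, which takes the spacing as the same in mm9 and GRCm38. Scaled depths multiply the WT depth by the ratio of the gene's reads.

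The genes and lists were chosen with earlier results of these data known. Named genes are the 6 genes, the editing enzymes, all members of families under 9 genes and, in each list, the lowest and highest log2 ratio at 10 RPKM; other genes were named after their values were seen. Some genes that this rule names, and 1 sequence stretch, are not reported here. Python 3.11.15, scipy 1.17.1 and pandas 2.3.3 were used.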

Additional observations from a re-analysis of the deposited data

How the results depend on the processing

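Of 53 values recomputed under a setting that could move them, 44 stayed within their counting interval or, for counts of genes, within 1.5 times, and none changed sign where it had been called. The Blcap Y2C difference, within counting error, went from -3.48 to 1.52 points with 1 edited read fewer in the WT-labelled and 1 more in the KO-labelled library. Settings that change only an interval or the rounding, and counts of 0 under both settings, are left out of this tally. The authors' GFOLD value was -0.01 for Igfbp7 and -0.76 for Dact3, by construction shrunken toward 0, and the authors' log2 fold change was 0.12 for Flna. With at least 5 RPKM in a library, 0 filamin partners were 2-fold higher, and 1 recoding candidate was 2-fold higher and 1 lower, since fewer genes were compared. With a pseudocount of 0.1 RPKM, 1 gene of the Blcap and Nnat pair was 2-fold higher. The share of all WT-labelled sites missing from the KO-labelled list was 84.2% with at least 20 reads and 82.7% outside repeats; the cause was not tested. For the 6 genes it was 77.8%, and 75.0% with at least 20 reads. No replicate could be left out, with 1 library per genotype. No paired analysis was possible because each genotype has 1 library. At the Dact3, silent Azin1 and Flna intronic sites, the scaled KO depth would give 4.05, 4.43 and 2.11 edited reads at the WT level. The KO-labelled list holds sites with as few as 2 edited reads. Why the Dact3, silent Azin1 and Flna intronic sites were missing from it was not tested.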
